A study of Mus musculus with 17 samples.

Results

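The genes described are 5 that mark regulatory T cells (Foxp3, Il2ra, Ikzf2, Ccr8 and Il10) and 5 that encode costimulatory receptors of T cells (Tnfrsf4, Tnfrsf9, Tnfrsf18, Icos and Cd27). They were chosen by name, and all 10 were found among the 21931 genes measured by RNA sequencing. The tumors compared were 9 of the control group (Con) and 8 of the cryoablation group (Cryo), as the labels assign them. The text of the study gives the sizes of the groups the other way round, and the sign of every difference below rests on the labels. The study lists 4 hemoglobin genes, S100a8 and S100a9 as lower in control than in cryoablation tumors. By the labels, log2 fold changes of cryoablation over control were also positive for Hba-a1 (1.75), Hbb-bs (1.54), Hbb-bt (1.45), S100a8 (1.34) and S100a9 (1.61). That of Hba-a2, fitted with no filter on low counts, was 2.61. All tumors came from wild-type C57BL/6J mice, 6 to 8 weeks old, with tumors of MC38, a mouse colon cancer line, under the skin of both sides. In the cryoablation group 1 of the 2 tumors was frozen through a cryoprobe on day 7, in 2 cycles of 20 s by the labels, whereas the methods of the study give a longer freeze. The opposite, unfrozen tumor was taken 5 days later. What was done to the other tumor of the control animals is not given in the labels, and that each library comes from a different mouse is not stated, so p-values measure the spread between these tumors. The comparison asks whether freezing one tumor goes with another level of these genes in the distant one.

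Regulatory T cells (Treg cells) are CD4+ T cells that restrain other immune cells, and tumors often hold many of them. FOXP3 is their lineage transcription factor, and Helios (Ikzf2) is a zinc finger factor found in many of them. The alpha chain IL2RA (CD25) gives the IL-2 receptor its high affinity, CCR8 is a chemokine receptor prominent on Treg cells inside tumors, and IL-10 is a suppressive cytokine that macrophages and B cells also make. OX40 (Tnfrsf4), 4-1BB (Tnfrsf9), GITR (Tnfrsf18) and CD27 are TNF receptor family members that signal through TRAF adaptors, whereas ICOS is a relative of CD28. Activated CD4+ and CD8+ T cells carry these receptors too. In RNA of whole tumors, fewer cells of a type and less RNA per cell cannot be told apart.

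Promoter sequence was at hand for 7 of the 10 genes, as 9 windows of 250 bases upstream of RefSeq start sites (GRCm38.p6). They were searched on both strands for 6 short motifs. The STAT motif TTCNNNGAA, which STAT5 below the IL-2 receptor can bind, matched in 3 of the 9 windows, against 7.02% of 32841 mouse windows of this length. These 3 windows are shown because they belong to the lineage factor and to a pair of receptors that share the match. Capitals mark TTCNNNGAA and, in Tnfrsf9, also the AP-1 motif TGANTCA.
Foxp3 (chrX:7580233-7580482, plus strand): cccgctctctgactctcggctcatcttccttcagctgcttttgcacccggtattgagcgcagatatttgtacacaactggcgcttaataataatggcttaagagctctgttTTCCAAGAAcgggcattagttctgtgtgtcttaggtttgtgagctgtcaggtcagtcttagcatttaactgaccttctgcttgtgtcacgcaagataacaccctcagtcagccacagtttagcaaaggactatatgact
Tnfrsf9 (chr4:150927749-150927998, plus strand): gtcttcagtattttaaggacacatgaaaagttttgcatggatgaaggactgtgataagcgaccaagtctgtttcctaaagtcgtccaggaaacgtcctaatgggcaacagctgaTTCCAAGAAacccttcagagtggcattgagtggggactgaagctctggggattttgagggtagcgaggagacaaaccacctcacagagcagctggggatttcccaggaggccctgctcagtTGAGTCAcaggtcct
Tnfrsf18 (chr4:156026072-156026321, plus strand): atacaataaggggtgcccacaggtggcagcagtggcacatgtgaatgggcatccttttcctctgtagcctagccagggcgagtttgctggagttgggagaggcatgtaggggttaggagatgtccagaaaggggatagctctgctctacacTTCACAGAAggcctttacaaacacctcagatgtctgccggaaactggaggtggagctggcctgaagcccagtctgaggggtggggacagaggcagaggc
Foxp3 and Tnfrsf9 each have another window, not shown, with 0 matches to TTCNNNGAA. In the windows shown, the STAT match began 139 bases upstream of the start site in Foxp3, 136 in Tnfrsf9 and 99 in Tnfrsf18. In Foxp3 it overlapped a match to the NFAT core GGAAA. This core matched in 8 of the 9 windows (55.6% of all windows) and the AP-1 motif in 1 (6.75%). The RUNX motif TGTGGT (14.05% of all windows), the forkhead motif TGTTTAC (3.17%) and the kappaB-like motif (GGGA and TCC, 3 bases apart, 3.86%) had 0 matches. The start sites of the windows shown lie 6839 bases from the listed start of the gene in Foxp3, 13437 in Tnfrsf9 and 158 in Tnfrsf18. A match describes the letters only, and other spellings of these sites were not searched.

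Total counts ranged from 14154687 to 17898672 per control tumor and from 13524899 to 16847050 per cryoablation tumor. On the first principal component of the 500 most variable genes (46.2% of the variance), cryoablation replicates 2, 4 and 5 lay between -39.4 and -28.4 and the other 14 tumors between -8.32 and 20.6. These replicates also had the lowest TMM normalization factors (0.767 to 0.886, others 0.922 to 1.10) and the fewest genes detected (14910 to 15022, others 15054 to 15734). Their summed FPKM was the highest (371963 to 390138, others 275499 to 342871). The part of these library traits in the values below was not tested. Control replicate 4 had the highest summed markers of T cells (170.0 CPM, next 124), NK cells (36.9 CPM, next 23.7), B and plasma cells (63.4 CPM, next 29.6), lymph node stroma (10.4 CPM, next 4.69), mast cells (60.1 CPM, next 36.0), neutrophils (68.1 CPM, next 55.7), fibroblasts (13143 CPM, next 9799) and endothelium (178 CPM, next 163). Many values below are also given without one or the other of these. Of the marker lists of other cell types, 4 of 4 erythroid genes tested had an unadjusted edgeR p under 0.05 with a positive sign. The erythroid sums were 6.16 to 74.6 CPM in the control group and 25.1 to 175 CPM in the cryoablation group. Such a p with a positive sign was also found for 2 of 4 neutrophil, 2 of 4 adipocyte and 1 of 3 skin genes, beside 3.74% of all genes tested. Among 7 macrophage genes 1 had such a p with a negative sign (Adgre1, -0.69 as log2 fold change), beside 1.17% of all genes tested. The neutrophil receptor gene Csf3r stood at -0.51, and it and Adgre1 were named after their values were seen. The part of these cells in the values below was not tested. The sum of 6 epithelial markers, which tumor cells of colon origin can carry, was 16.5 to 97.0 CPM in the control group and 9.70 to 216 CPM in the cryoablation group.

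All 10 genes had counts in all 17 tumors, and 9 passed the filter on low counts, Il10 being the exception. As CPM (counts scaled to library size, with TMM normalization) per kilobase of gene length, a scale on which genes can be compared, Tnfrsf9 was the highest, with a mean level of 19.1 ± 4.74 (SD, 17 tumors), above Tnfrsf4 (4.74 ± 2.03) in 17 of 17 tumors. Tnfrsf4 was above Tnfrsf18 (2.07 ± 0.705) in 16. The levels of the next genes were 1.75 ± 0.953 for Icos, 1.41 ± 0.845 for Il2ra, 0.988 ± 0.656 for Cd27 and 0.738 ± 0.477 for Ccr8. From Tnfrsf18 down, neighbours in the order differed on average by less than the SD of their log2 difference. Ikzf2 (0.557 ± 0.217), Il10 (0.453 ± 0.303) and Foxp3 (0.343 ± 0.164) were the lowest, and Ikzf2 exceeded Il10 in only 8 of 17 tumors.

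Between the groups, 0 of the 9 tested members had a Benjamini-Hochberg adjusted p under 0.05 in edgeR's quasi-likelihood test, as had 0 of the 13005 genes tested (0%), and DESeq2 and limma's voom also gave 0 genes. An unadjusted p under 0.05 together with a log2 fold change beyond 1 in either direction was found for 0 members and 64 genes (0.492%). At an unadjusted p under 0.05 alone there were 0 members and 639 genes (4.91%) in edgeR, 0 members and 881 genes in DESeq2, and 1 member (Il2ra) and 1312 genes in voom. The log2 fold change, cryoablation over control, was negative for 6 and positive for 3 of the 9 members, with a median of -0.32, beside -0.0088 over all genes tested. These figures rest on control replicate 4, without which 4 were negative, 5 were positive and the median was 0.012 (a check chosen after seeing the data). In voom, with all tumors, 8 were negative, 1 was positive and the median was -0.22. The biological coefficient of variation, the spread between tumors beyond counting, had a median of 0.436 over the 9 members and 0.244 over all genes tested.

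**Figure D1:**
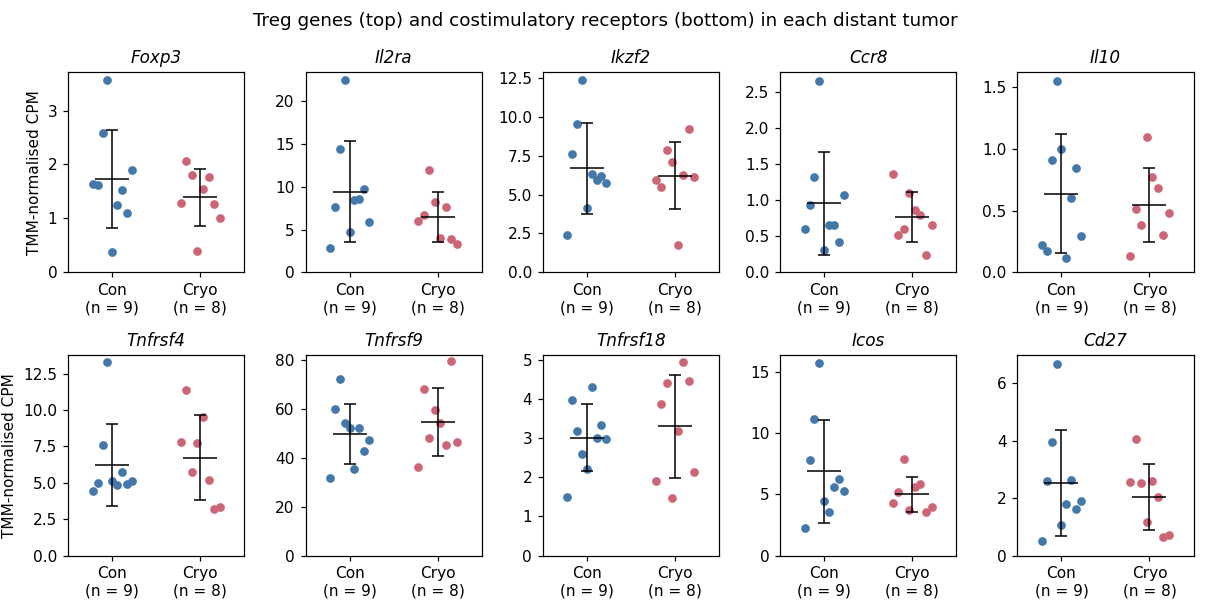
TMM-normalised CPM (y axis from 0, with its own scale in each panel) of the 10 genes in 9 control (Con) and 8 cryoablation (Cryo) tumors. Points are tumors and bars are the mean and SD. The groups overlap in every panel, and control replicate 4 is the highest tumor in 8 of the 10.

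Foxp3 (ENSMUSG00000039521, chromosome X, 7573644 to 7595245), by GRCm38 positions as for all genes here, ranged from 0.383 to 3.56 CPM in the control group (median 1.62) and from 0.391 to 2.07 CPM in the cryoablation group (median 1.42). The groups overlapped, and the control median exceeded 5 of the 8 cryoablation tumors. Foxp3 averaged 1.73 ± 0.908 CPM (SD) over 9 control tumors and 1.39 ± 0.529 CPM (SD) over 8 cryoablation tumors. For Foxp3, edgeR put the log2 fold change at -0.32 (standard error 0.34 on the log2 scale, 95% interval -1.03 to 0.40, edgeR adjusted p = 0.772), and the two-sided exact permutation test of log2 CPM gave p = 0.534. In folds, the interval reached from 0.488 to 1.32. These values rest on 5 to 55 counts per tumor, with 5 in control replicate 5 and in cryoablation replicate 4. Without control replicate 4 the log2 fold change was -0.13. Of the 4577 exonic bases of Foxp3, 853 are shared with Flicr on the same strand and 590 with Ccdc22 on the opposite strand, so reads there are uncertain.

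Il2ra (ENSMUSG00000026770, chromosome 2, 11642807 to 11693193) had the most negative fold change of the 10 genes. It ranged from 2.84 to 22.5 CPM in the control group (median 8.43) and from 3.28 to 12.01 CPM in the cryoablation group (median 6.34). The control median exceeded 7 of the 8 cryoablation tumors, and 0 lay below the lowest control tumor. Il2ra averaged 9.42 ± 5.88 CPM (SD) over 9 control tumors and 6.46 ± 2.90 CPM (SD) over 8 cryoablation tumors. For Il2ra, edgeR put the log2 fold change at -0.54 (standard error 0.35 on the log2 scale, 95% interval -1.27 to 0.18, edgeR adjusted p = 0.728), with an exact permutation p of 0.256. Without control replicate 4, which held the 22.5 CPM, it was -0.28. Without cryoablation replicate 3 it was -0.74, the one omission of a single tumor that took the unadjusted p of a member under 0.05.

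Ikzf2 (ENSMUSG00000025997, chromosome 1, 69531214 to 69687245) ranged from 2.39 to 12.4 CPM in the control group (median 6.17) and from 1.74 to 9.22 CPM in the cryoablation group (median 6.20), and the control median split the cryoablation tumors evenly. The log2 fold change of Ikzf2 was -0.10 (95% interval -0.71 to 0.51, edgeR adjusted p = 0.898, exact permutation p = 0.785). Its sign turned without control replicate 4 (0.055) and without cryoablation replicates 2, 4 and 5 (0.075). Ccr8 (ENSMUSG00000042262, chromosome 9, 120092114 to 120094906) ranged from 0.307 to 2.65 CPM in the control group (median 0.658) and from 0.241 to 1.36 CPM in the cryoablation group (median 0.726), on 4 to 41 counts per tumor. Control replicate 4 stood alone at the top, since no other tumor exceeded 1.36 CPM. The log2 fold change of Ccr8 was -0.33 (95% interval -1.16 to 0.50, edgeR adjusted p = 0.788, exact permutation p = 0.639), and without that tumor 0.012.

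Il10 (ENSMUSG00000016529, chromosome 1, 131019845 to 131024974) was thinly covered, with 2 to 24 counts in the control and 2 to 14 in the cryoablation tumors. Its lowest tumors lay at or under the limit that a count of 0 allows, which is 3 counts or 0.152 to 0.289 TMM-normalised CPM and covers counting error only. Il10 ranged from 0.120 to 1.55 CPM in the control group (median 0.603) and from 0.136 to 1.09 CPM in the cryoablation group (median 0.497). Fitted with no filter, it had a log2 fold change of -0.25 (95% interval -1.26 to 0.75, edgeR adjusted p = 0.849, exact permutation p = 0.927), the widest interval of the 10 genes. Without cryoablation replicates 2, 4 and 5 it passed the filter, and the filtered fit gave -0.67. It also passed in 6 of the fits without a single tumor, with -0.32 to -0.11.

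Tnfrsf9 (ENSMUSG00000028965, chromosome 4, 150914562 to 150946102) was the best measured receptor, with 427 to 1422 counts per tumor. It ranged from 31.9 to 72.0 CPM in the control group (median 52.0) and from 36.3 to 79.5 CPM in the cryoablation group (median 51.3), so that the medians were nearly equal. Tnfrsf9 averaged 49.8 ± 12.3 CPM (SD) over 9 control tumors and 54.6 ± 13.9 CPM (SD) over 8 cryoablation tumors. For Tnfrsf9, edgeR put the log2 fold change at 0.13 (standard error 0.17 on the log2 scale, 95% interval -0.22 to 0.48, edgeR adjusted p = 0.793, exact permutation p = 0.453). This was the narrowest interval of the 10 genes, and in folds it reached from 0.861 to 1.40. It was 0.028 without cryoablation replicate 7 and 0.029 without cryoablation replicates 2, 4 and 5, and in limma's voom the sign was negative (-0.096).

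Tnfrsf4 (ENSMUSG00000029075, chromosome 4, 156013843 to 156016612) and Tnfrsf18 (ENSMUSG00000041954, chromosome 4, 156026164 to 156028895) lie close together on the same strand. Tnfrsf4 ranged from 4.41 to 13.3 CPM in the control group (median 5.12) and from 3.19 to 11.4 CPM in the cryoablation group (median 6.73), where 6 of 8 tumors lay above the control median and 2 below the lowest control tumor. Its log2 fold change was 0.11 (95% interval -0.47 to 0.68, edgeR adjusted p = 0.886, exact permutation p = 0.785). It was 0.32 without control replicate 4 and -0.31 without cryoablation replicates 2, 4 and 5, which held 11.4, 7.73 and 9.55 CPM. In voom it was -0.061. Tnfrsf18 ranged from 1.49 to 4.30 CPM in the control group (median 3.01) and from 1.48 to 4.95 CPM in the cryoablation group (median 3.53), where 3 tumors lay above the highest control tumor and 1 below the lowest. Its log2 fold change was 0.13 (95% interval -0.40 to 0.66, edgeR adjusted p = 0.847, exact permutation p = 0.781). It was 0.24 without cryoablation replicates 2, 4 and 5, 0.019 without cryoablation replicate 6, and -0.22 in voom. Gm16008, on the opposite strand, shares 414 of the 1524 exonic bases of Tnfrsf18.

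Icos (ENSMUSG00000026009, chromosome 1, 60977927 to 61000320) ranged from 2.24 to 15.7 CPM in the control group (median 5.64) and from 3.56 to 7.86 CPM in the cryoablation group (median 4.72), where 6 of 8 tumors lay below the control median. Icos averaged 6.89 ± 4.20 CPM (SD) over 9 control tumors and 5.00 ± 1.45 CPM (SD) over 8 cryoablation tumors. The log2 fold change of Icos was -0.46 (95% interval -1.11 to 0.19, edgeR adjusted p = 0.728, exact permutation p = 0.386), and -0.22 without control replicate 4. Cd27 (ENSMUSG00000030336, chromosome 6, 125232622 to 125237010) ranged from 0.523 to 6.67 CPM in the control group (median 1.91) and from 0.663 to 4.05 CPM in the cryoablation group (median 2.28), so that the cryoablation group had the higher median and the lower mean. The log2 fold change of Cd27 was -0.32 (95% interval -1.23 to 0.58, edgeR adjusted p = 0.802, exact permutation p = 0.633), with -0.012 without control replicate 4 and -0.58 without cryoablation replicates 2, 4 and 5. Control replicate 4 was the highest of the 17 for 8 of the 10 genes, all but Tnfrsf9 and Tnfrsf18.

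**Figure D2:**
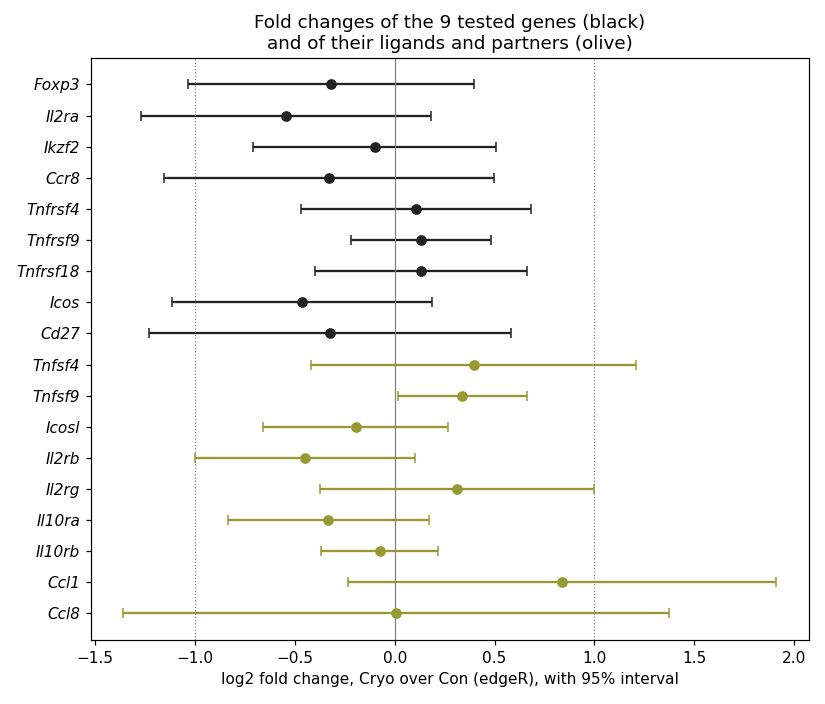
Log2 fold change of the cryoablation over the control group (x axis) with its 95% interval from edgeR, for the 9 members tested (black) and their tested ligands and partners (olive). Lines mark 0 and an absolute log2 fold change of 1. All 9 member intervals cross 0, that of Il2ra being centred at -0.54, and the interval of Tnfsf9 lies above 0.

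Of the 5 ligands of these receptors, 3 were tested, and 1 had an unadjusted edgeR p under 0.05 with a positive sign (3.74% of all genes tested) and 0 with a negative one (1.17%). Tnfsf9, the ligand of 4-1BB, averaged 11.4 ± 1.68 CPM (SD) over 9 control tumors and 14.4 ± 3.85 CPM (SD) over 8 cryoablation tumors. This was a log2 difference of 0.34 in the fit (0.15 standard error, unadjusted edgeR p = 0.0391, adjusted p = 0.728, exact permutation p = 0.0640). It was 0.11 without cryoablation replicates 2, 4 and 5, and 0.012 in voom. Leaving out any one of control replicates 1, 2, 4, 6, 7 and 9 or of cryoablation replicates 2, 4, 5 and 7 took its unadjusted p to 0.05 or above, with log2 fold changes of 0.26 to 0.41 over all single omissions. The log2 fold change of Icosl, the ligand of ICOS, was -0.20 (standard error 0.22), and that of Tnfsf4, the ligand of OX40, 0.40 (standard error 0.39) on 3 to 25 counts per tumor. That of Tnfsf4 was -0.074 without cryoablation replicates 2, 4 and 5, and -0.19 in voom. Tnfsf18 and Cd70, the ligands of GITR and CD27, had at most 16 and 11 counts and did not pass the filter.

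Of 7 partners in the IL-2, IL-10 and CCR8 pathways, 6 were tested and 0 had an unadjusted p under 0.05 over all 17 tumors (4.91% of all genes tested). Il2 itself had at most 4 counts in any tumor. Il2rb, the beta chain of the IL-2 receptor, averaged 41.5 ± 21.5 CPM (SD) over 9 control tumors and 30.4 ± 8.23 CPM (SD) over 8 cryoablation tumors, which gave -0.45 as its log2 fold change (0.26 standard error, edgeR adjusted p = 0.728). Il2rg, the gamma chain that other cytokine receptors share, stood at 0.31 (0.33 standard error). The chains of the IL-10 receptor, Il10ra and Il10rb, had -0.33 (standard error 0.24) and -0.075 (standard error 0.14). The CCR8 ligands varied widely, Ccl8 from 31.9 to 1001 CPM in the control and from 51.9 to 919 CPM in the cryoablation group. Their log2 fold changes were 0.0081 for Ccl8 (standard error 0.65) and 0.84 for Ccl1 (standard error 0.51). Without cryoablation replicates 2, 4 and 5 those of Il2rg, Ccl8 and Ccl1 were -0.50, -1.55 and -0.49. The unadjusted p was then under 0.05 for Ccl8, and for Il2rb it was so without control replicate 1 or without control replicate 5.

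Of 16 further genes associated with Treg cells 14 were tested, with a median log2 fold change of -0.23 beside -0.0088 over all genes tested. An unadjusted p under 0.05 was found for 1 with a negative sign (1.17% of all genes tested) and 0 with a positive sign (3.74%). Tigit, an inhibitory receptor of T and NK cells, averaged 3.83 ± 2.08 CPM (SD) over 9 control tumors and 2.23 ± 0.849 CPM (SD) over 8 cryoablation tumors. In the fit Tigit stood at a log2 fold change of -0.78 (0.30 standard error, unadjusted edgeR p = 0.0171, adjusted p = 0.728, exact permutation p = 0.0252), and the control median exceeded 7 of 8 cryoablation tumors. Without cryoablation replicates 2, 4 and 5 it was -0.64 and its unadjusted p was no longer under 0.05. Ctla4, an inhibitory receptor that Treg cells carry constitutively, stood at -0.31 (0.37 standard error) on the same scale. The other ends of the list were Irf4, a transcription factor of activated lymphocytes (-0.68, standard error 0.36), Nrp1, a semaphorin coreceptor (0.27, standard error 0.16), and Areg, a ligand of the epidermal growth factor receptor (1.16, standard error 0.64).

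All 8 genes for TRAF adaptors and noncanonical NF-kappaB signaling, which act below the TNF receptors, were tested. An unadjusted p under 0.05 was found for 0 with a negative sign (1.17% of all genes tested) and 1 with a positive sign (3.74%). This was Nfkb2, the precursor of the p52 subunit, which averaged 267 ± 26.9 CPM (SD) over 9 control tumors and 314 ± 60.5 CPM (SD) over 8 cryoablation tumors. In the fit Nfkb2 stood at a log2 fold change of 0.24 (0.11 standard error, unadjusted edgeR p = 0.0375, adjusted p = 0.728, exact permutation p = 0.0347), and 0.072 without cryoablation replicates 2, 4 and 5. The unadjusted p of Nfkb2 was 0.05 or above without any one of control replicates 2, 3, 4, 7, 8 and 9 or cryoablation replicates 2, 5 and 7, with log2 fold changes of 0.16 to 0.28 over all single omissions. The other log2 fold changes ranged from -0.19 for Birc3 and -0.16 for Traf3 to 0.27 for Traf2.

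Each gene was also set against the CD3 level, the mean log2 CPM of Cd3d, Cd3e and Cd3g, which encode chains of the T cell receptor complex of CD4+ and CD8+ T cells alike. The CD3 level was 2.39 ± 0.634 (log2 CPM, SD, n = 9) in the control and 2.31 ± 0.960 (SD, n = 8) in the cryoablation group (difference -0.077, exact permutation p = 0.841). By gene, the log2 fold changes were 0.12 for Cd3d (standard error 0.45), -0.29 for Cd3e (standard error 0.37) and 0.32 for Cd3g (standard error 0.37). In the same order, the SD of log2 CPM was 0.65, 0.80 and 0.62 in the control group and 1.30, 0.73 and 0.96 in the cryoablation group. Relative to CD3, 0 of the 10 genes had an exact permutation p under 0.05. For Foxp3 the relative level was -1.66 ± 0.658 (SD, n = 9) and -1.82 ± 1.03 (SD, n = 8), a difference of -0.15 (exact permutation p = 0.720). The 10 differences ranged from -0.36 for Il2ra (exact permutation p = 0.359) to 0.21 for Tnfrsf9 (exact permutation p = 0.627). The SD was larger in the cryoablation than in the control group for all 10 genes, as for Ikzf2 (1.52 against 0.319), a comparison of spreads that was not tested.

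Tumors at both ends made up this spread. Cryoablation replicate 7 had the lowest CD3 level of all tumors (0.69) and the highest relative levels of 7 of the 10 genes, among them Foxp3 (-0.22), Ikzf2 (2.53), Tnfrsf9 (5.62) and Tnfrsf18 (1.505). Cryoablation replicates 2 and 5 had relative levels of Ikzf2 of -1.28 and -2.53, below the lowest control tumor at -0.20. Without cryoablation replicates 2, 4 and 5 the CD3 level itself differed by -0.62 (exact permutation p = 0.108, added after the data were seen), and every relative difference exceeds the difference of the gene itself by this one amount. All 10 relative differences were then positive, those of Foxp3, Il2ra, Ikzf2, Ccr8, Icos and Cd27 having turned sign, so these are not separate observations. That of Foxp3 was then 0.51 (exact permutation p = 0.189) and that of Ikzf2 0.81 (exact permutation p = 0.00150, 1 of 10 genes, unadjusted). Ikzf2 itself, not set against CD3, differed by 0.19 in the same 14 tumors (exact permutation p = 0.583).

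**Figure D3:**
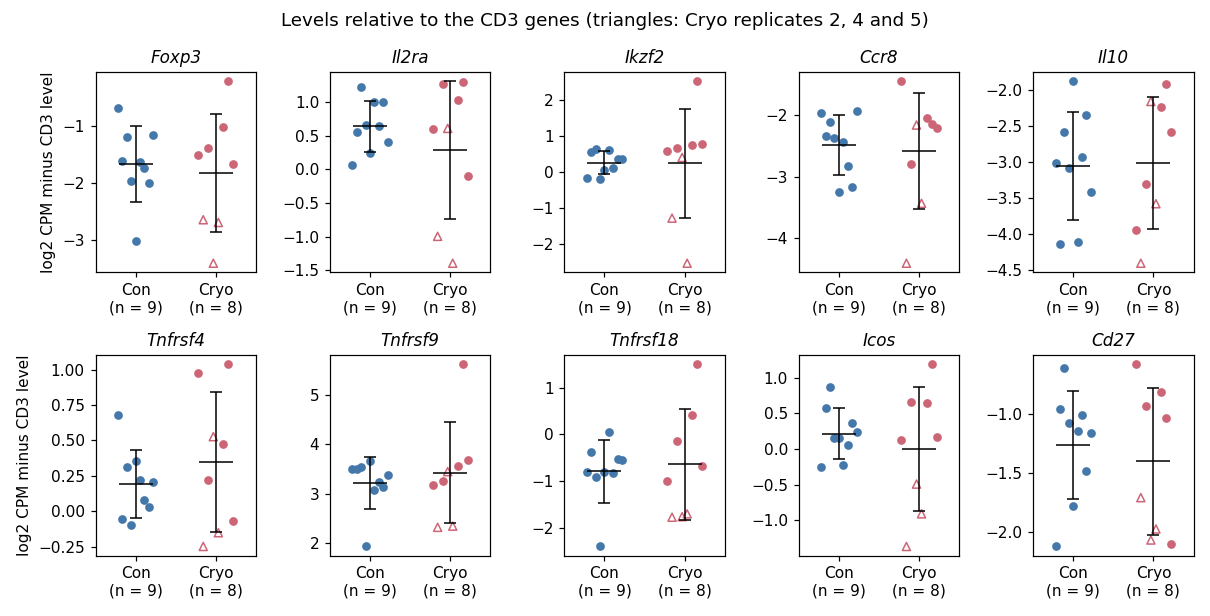
Level of the 10 genes relative to CD3 (y axis, log2 CPM of the gene minus the mean log2 CPM of Cd3d, Cd3e and Cd3g) in each tumor of the control (Con) and cryoablation (Cryo) groups. Points are tumors, open triangles are cryoablation replicates 2, 4 and 5, and bars are the mean and SD. For Ikzf2 the cryoablation tumors spread from -2.53 to 2.53 and the control tumors from -0.20 to 0.63.

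Whether the genes varied together was described by correlations of log2 CPM over the 17 tumors. Pearson r over the 45 pairs of the 10 genes had a median of 0.39 and ranged from -0.25 (Ccr8 with Tnfrsf18) to 0.83 (Icos with Cd27). Foxp3 was compared with each of the other 9. With Cd27, r was 0.62 (permutation p = 0.00731, adjusted p = 0.0658) and rho 0.67 (permutation p = 0.00424, adjusted p = 0.0382). With Icos, r was 0.58 (permutation p = 0.0166, adjusted p = 0.0748) and rho 0.57 (permutation p = 0.0178, adjusted p = 0.0801). Without the 2 tumors farthest from the median of Foxp3, r was 0.71 for Cd27 and 0.71 for Icos, and without control replicate 4 it was 0.52 and 0.43. Within the control and the cryoablation group it was 0.64 and 0.58 for Cd27, and 0.56 and 0.65 for Icos. For the other 7 genes r ranged from -0.071 (Il10) to 0.47 (Ccr8), with adjusted permutation p values of 0.167 to 0.788. That with Ccr8 was 0.91 in the control and -0.33 in the cryoablation group, a difference that was not tested.

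The relations of the genes with the CD3 level were a family of 10 added after the data were seen. For Tnfrsf4, r with the CD3 level was 0.89 (permutation p = 1e-05, the smallest that 100000 permutations can give, adjusted p = 1e-04) and rho 0.79 (permutation p = 0.000280, adjusted p = 0.00140). For Cd27, r was 0.81 (permutation p = 0.000130, adjusted p = 0.000650) and rho 0.84 (permutation p = 5e-05, adjusted p = 0.000500). Without the 2 tumors farthest from the median CD3 level these r values were 0.82 and 0.69. For Tnfrsf18, r was 0.040 (permutation p = 0.878, adjusted p = 0.971), with a rho of -0.0025 (permutation p = 0.997). Without the same 2 tumors r was 0.35, and for Tnfrsf9 r went from 0.22 to 0.70. For Icos, r was 0.62 (permutation p = 0.00935, adjusted p = 0.0312) and rho 0.62 (permutation p = 0.00972, adjusted p = 0.0243), and r without these tumors 0.41. For Il2ra, r was 0.52 (permutation p = 0.0308, adjusted p = 0.0616) and rho 0.62 (permutation p = 0.00873, adjusted p = 0.0243), and r without them 0.22. The correlations were not tested against each other. Within the control group, r was 0.91 for Icos, 0.91 for Il2ra and 0.88 for Ikzf2, and within the cryoablation group 0.43, 0.22 and -0.65, differences that were not tested.

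**Figure D4:**
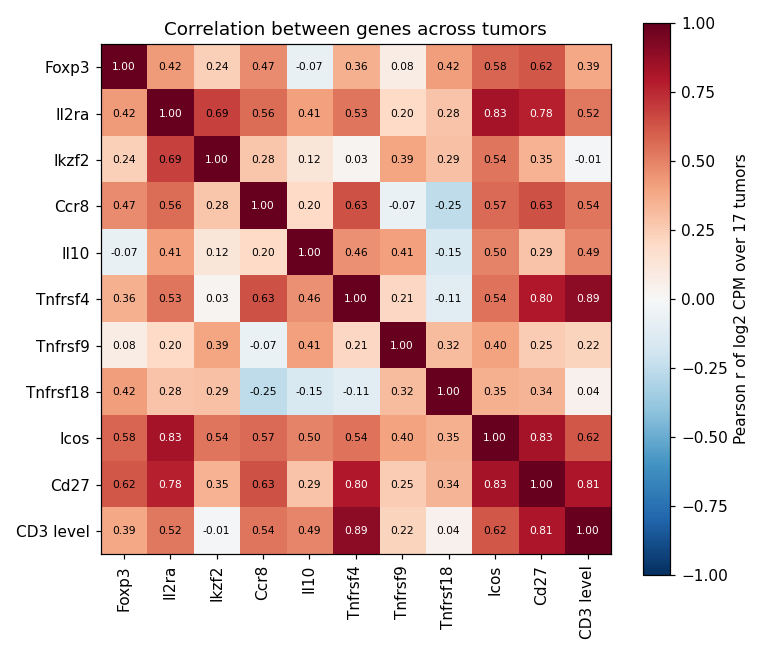
Pearson r (colour scale from -1 to 1, with printed values) of log2 CPM between the 10 genes and the CD3 level over 17 tumors. Tnfrsf4 (0.89) and Cd27 (0.81) have the highest values in the CD3 row, and the lowest pair of genes is Ccr8 with Tnfrsf18 (-0.25).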

How the data were processed

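RNA of 17 MC38 tumors (9 Con, 8 Cryo, grouped by the labels) was analysed from 1 table. Per the labels, RNA was extracted with an RNeasy kit and libraries were made with a SMARTER mRNA kit. The deposited counts are reads per gene, not normalized, and the deposited FPKM values are these counts scaled to gene length and library total. FPKM values were used only to describe the libraries. The aligner, the counting and its use of strand are not given in the sources used here. The labels name GRCm38, but only 512 gene positions of the table equal those of GENCODE M21, so positions were taken from GENCODE M21 by gene ID.

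Counts were tested with edgeR 4.0.16 (R 4.3.3; TMM, filterByExpr, quasi-likelihood F test, Benjamini-Hochberg over 13005 genes). Log2 CPM (prior count 2) entered two-sided exact permutation tests over all 24310 splits, one gene at a time, and correlations with 100000 permutations. Alternatives were DESeq2 1.42.0, limma 3.58.1 (voom with quality weights), other normalizations and filters, a replicate block, and omitted tumors. The fit was tested on simulated data. The members and lists were chosen with earlier results of these data known. All members, ligands and partners are named; of the other Treg and adaptor lists, Ctla4, genes with an unadjusted p under 0.05 and the 2 largest and 2 smallest fold changes; and the 5 genes most like Foxp3.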

Additional observations from a re-analysis of the deposited data

Results flagged for a closer look

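Of 40 groups of values examined, 6 held a tumor whose gap to its nearest neighbour was large against the range of its group by Dixon's test, which chance gives in about 1 in 20 groups. In log2 CPM, Foxp3 in cryoablation replicate 4 was -0.95 (next tumor 0.19), on 5 counts. Ikzf2 in cryoablation replicate 5 was 0.90 (next 2.49), and Tnfrsf4 in control replicate 4 was 3.74 (next 2.95). Relative to CD3, Tnfrsf9 was 1.93 in control replicate 4 (next 3.06) and 5.62 in cryoablation replicate 7 (next 3.68), and Tnfrsf18 was -2.40 in control replicate 4 (next -0.91). Control replicate 4 had the highest and cryoablation replicate 7 the lowest CD3 level of the 17 tumors. The part of the CD3 level in these values was not tested.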

How the results depend on the processing

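The count of 0 genes and 0 members at an adjusted p under 0.05 held under every alternative run, and of 73 member fold changes under alternatives other than leaving out single tumors 66 kept their sign and side of 0.05, 6 turned sign and 1 passed 0.05. In voom, 1 member and 1312 genes had an unadjusted p under 0.05. There Il2ra had -0.63, and the log2 fold changes that turned sign were Ccr8 0.087, Tnfrsf4 -0.061, Tnfrsf9 -0.096, Tnfrsf18 -0.22, Tnfsf4 -0.19, Il2rg -0.30, Ccl1 -0.040, Ccl8 -0.78, Areg -0.24. Without the filter on low counts, 432 genes had an unadjusted p under 0.05 and a log2 fold change beyond 1, 992 had an unadjusted p under 0.05 and Ccl8 was at -0.013. With upper-quartile normalization Ccl8 was at -0.0245. Without cryoablation replicates 2, 4 and 5, 325 genes had an unadjusted p under 0.05, and the log2 fold changes that turned sign were Ikzf2 0.075, Tnfrsf4 -0.31, Tnfsf4 -0.074, Il2rg -0.50, Ccl1 -0.49, Ccl8 -1.55, Areg -0.39, Nrp1 -0.041, Traf3 0.15, Birc3 0.0082, with level differences of Ikzf2 0.19, Tnfrsf4 -0.29. Relative to CD3 those that turned were Foxp3 0.51, Il2ra 0.18, Ikzf2 0.81, Ccr8 0.36, Icos 0.34, Cd27 0.17, with 1 gene under 0.05. Set against Cd2, Cd5, Cd6 and Lck, 1 gene was under 0.05 (Tnfrsf4 0.35, exact permutation p = 0.0447) and Foxp3 0.043, Ikzf2 0.18, Ccr8 0.10, Cd27 0.053 turned sign, as did Ikzf2 (0.074) set against Cd4. Correlations with Foxp3 that turned sign were Ikzf2 -0.20, Ccr8 -0.33 and Tnfrsf9 -0.070 within the cryoablation group, and Il10 at 0.52 without the 2 farthest tumors, 0.078 within the control group and 0.12 without cryoablation replicates 2, 4 and 5. The correlations without control replicate 4 or without cryoablation replicates 2, 4 and 5 were added after the data were seen. The causes were not tested.

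With single tumors left out, the count of genes with both an unadjusted p under 0.05 and a log2 fold change beyond 1 ran from 34 to 165, without cryoablation replicates 5 and 3 respectively, that of genes with an unadjusted p under 0.05 from 252 without cryoablation replicate 2 to 1388 without replicate 3 of that group, and that of members from 0 to 1. Log2 fold changes whose sign turned ranged from -0.65 to 0.65 for Ccl8, -0.51 to 0.012 for Ccr8, -0.21 to 0.055 for Ikzf2, -0.041 to 0.32 for Tnfrsf4 and -0.15 to 0.018 for Il10rb. Level differences did so for Ccr8 (-0.31 to 0.027), Ikzf2 (-0.26 to 0.14), Il10 (-0.21 to 0.14), Tnfrsf18 (-0.040 to 0.21) and Tnfrsf4 (-0.048 to 0.22), the median of the 9 members (-0.42 to 0.012) and the CD3 level (-0.29 to 0.15), both added after the data were seen, did so too, and levels relative to CD3 for Ccr8 (-0.25 to 0.17), Foxp3 (-0.38 to 0.076), Ikzf2 (-0.34 to 0.38), Il10 (-0.12 to 0.24), Tnfrsf18 (-0.16 to 0.31) and Tnfrsf9 (-0.10 to 0.37).

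The groups share replicate numbers 1 to 8, but not every same-numbered pair deviated together (correlations of -0.51 to 0.64, 4 of 8 over 0.1, and 2 of 8 highest with their own number). With the replicate block, 33 genes had an unadjusted p under 0.05 and a log2 fold change beyond 1, 0 genes and 0 members had an adjusted p under 0.05, and Tnfsf9 (0.32) and Nfkb2 (0.22) no longer had an unadjusted p under 0.05. Depth limits Foxp3, Ccr8 and Il10 most, each with tumors of 5 or fewer counts.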

Other observations

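Among 12965 genes, the 5 whose log2 CPM followed Foxp3 most closely over the 17 tumors included no gene of the T cell list. Stab1, a scavenger receptor of macrophages and endothelium, had the highest Pearson r (0.89, with 0.93 within the control and 0.88 within the cryoablation group), on a mean of 2266 counts per tumor. Ncr1, which encodes the NK cell receptor NKp46, came next (r = 0.85), followed by the kinase gene Mapkapk3 (0.84), the transcriptional repressor Gfi1 (0.82) and Prrg3 (0.82). In the same order, Spearman rho of these 5 genes was 0.75, 0.65, 0.54, 0.83 and 0.70. Icosl, the ligand of ICOS, ranked 6 with an r of 0.82, and Il2rb ranked 65 (0.71). The T cell list ran from rank 64 (Cd8a, 0.71) and rank 202 (Cd4, 0.64) down to rank 3790 (Cd3d, 0.25). Of the other 9 members the closest was Cd27, at rank 257. The 17 tumors share their depth and composition across genes, and the values are descriptions chosen as the highest of many, with no test.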
